A study of Homo sapiens with 6 samples.

Results

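The genes described here encode the factors that start, carry on and end protein synthesis on cytosolic ribosomes, and the proteins that hold the cap-binding factor back. Members were the protein-coding genes whose symbols begin with EIF and a number from 1 to 6, without the 4 kinases of eIF2α, plus EEF1A1, EEF1B2, EEF1D, EEF1G, EEF2, EEF2K, ETF1, GSPT1 and PABPC1. This gave 61 of the 63140 genes listed. RNA had been sequenced from 3 wells of wild-type BT-549 in adipocyte conditioned medium (ACM) and 3 wells in unconditioned medium (UCM), each after 24 h. BT-549 is a human breast cancer line of the triple negative type, and the comparison asks how such cells respond to what adipocytes secrete. ACM was a medium with insulin and oleate that differentiating OP9 cells, of mouse origin, had conditioned, and the formula of UCM is not given in the sources used here. Base medium, serum, insulin and oleate therefore cannot be told apart from what the adipocytes secreted. The labels describe diluted ACM and the study's supplement undiluted ACM. The 6 libraries hold 17135288 to 21053257 expected counts, and 56 of the 61 members passed the filter on low counts, as did 14451 genes in all. The labels number the replicates but do not say whether the wells came from separate cultures, so p-values measure only the spread between these libraries, which may be technical. The cells are labelled epithelial, but 6 epithelial markers, among them EPCAM, CDH1 and KRT8, summed to 1.30 to 2.80 CPM (counts scaled to a common library size) in each library, against 4117 to 4954 for the mesenchymal genes VIM, FN1, ZEB1 and CDH2.

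Translation of most mRNAs begins when eIF4F, made of the cap-binding eIF4E, the scaffold eIF4G and the RNA helicase eIF4A, loads the mRNA onto a small ribosomal subunit that carries eIF1, eIF1A, eIF3, eIF5 and the eIF2-GTP-initiator tRNA complex. eIF2B recharges eIF2 with GTP, and phosphorylation of the eIF2α subunit blocks that step. The 4E-binding proteins compete with eIF4G for eIF4E until mTORC1 phosphorylates them, and eEF1 and eEF2 then drive elongation. Many mRNAs of the translation machinery begin with a C followed by a run of pyrimidines, the 5′ terminal oligopyrimidine (TOP) motif, through which mTORC1 governs their own translation.

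EIF4EBP1 was the member that rose in ACM, and EIF5, EIF5A2, EIF4E, EIF2S1, EIF4G2 and EIF4A1 fell. Calls were made by edgeR's quasi-likelihood test with Benjamini-Hochberg adjustment over all genes tested, where the adjusted p-value was at most 0.05. That is 1 of 56 tested members higher, against 3.35 percent of all genes tested, and 6 of 56 lower, against 2.21 percent. Most members are abundant, so the share among tested genes averaging at least 20 CPM is the closer background. There 1 of 53 members was higher, against 4.3 percent, and 5 of 53 were lower, against 3.37 percent. No member passed the study's thresholds, which ask for a p-value of at most 0.05, read here as unadjusted, and a log2 fold change (FC) of ACM against UCM of 0.58 or more, up or down. Of all genes tested 4.12 percent passed them upward and 1.71 percent downward, and of abundant genes 2.31 and 0.868 percent. By the unadjusted p-value alone 2 members were higher, against 11.9 percent of all genes tested, and 19 were lower, against 11.5 percent. Among abundant genes these were 2 of 53 members against 13.3 percent and 18 of 53 against 15.9 percent. The log2 FC of 39 members lay below 0 and that of 17 above it, where 7497 of 14451 genes tested lay below 0. Among abundant genes 37 of 53 members lay below 0, against 4321 of 7836. The median of the members was −0.06, in a range from −0.51 to 0.50. For all genes tested the median was −0.01, and for abundant genes −0.02. All 3 ACM values lay under all 3 UCM values for 20 members, and all above for 3, where 15.1 and 13.9 percent of all genes tested did so. Of the 53 abundant members 19 lay apart below and 3 above, against 19.3 and 15.1 percent of abundant genes. The calls of EIF4EBP1 and EIF5 were made in each of the 15 alternative settings, as the plot of settings shows. The other 5 calls were lost in TPM and with effective lengths as offsets, and they depended on single libraries. With lengths as offsets EIF4G2, EIF4A1, EIF4E and EIF2S1 kept log2 FC of −0.27, −0.26, −0.36 and −0.34 (edgeR adjusted p = 0.0707, 0.0784, 0.0924 and 0.117), and EIF5A2 had −0.10 (adjusted p = 0.811). Without ACM replicate 1 their adjusted p-values (edgeR) lay between 0.0579 and 0.0849, without ACM replicate 2 between 0.0888 and 0.140, without UCM replicate 2 between 0.108 and 0.188, and without UCM replicate 3 between 0.122 and 0.205, so none of the 5 was called there. Without ACM replicate 3 EIF2S1 and EIF4G2 were still called, and EIF5A2, EIF4E and EIF4A1 stood at an adjusted p (edgeR) of 0.0648, 0.0548 and 0.0692. Without UCM replicate 1 all 5 were called, and the count of lower members was 9.

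**Figure D1:**
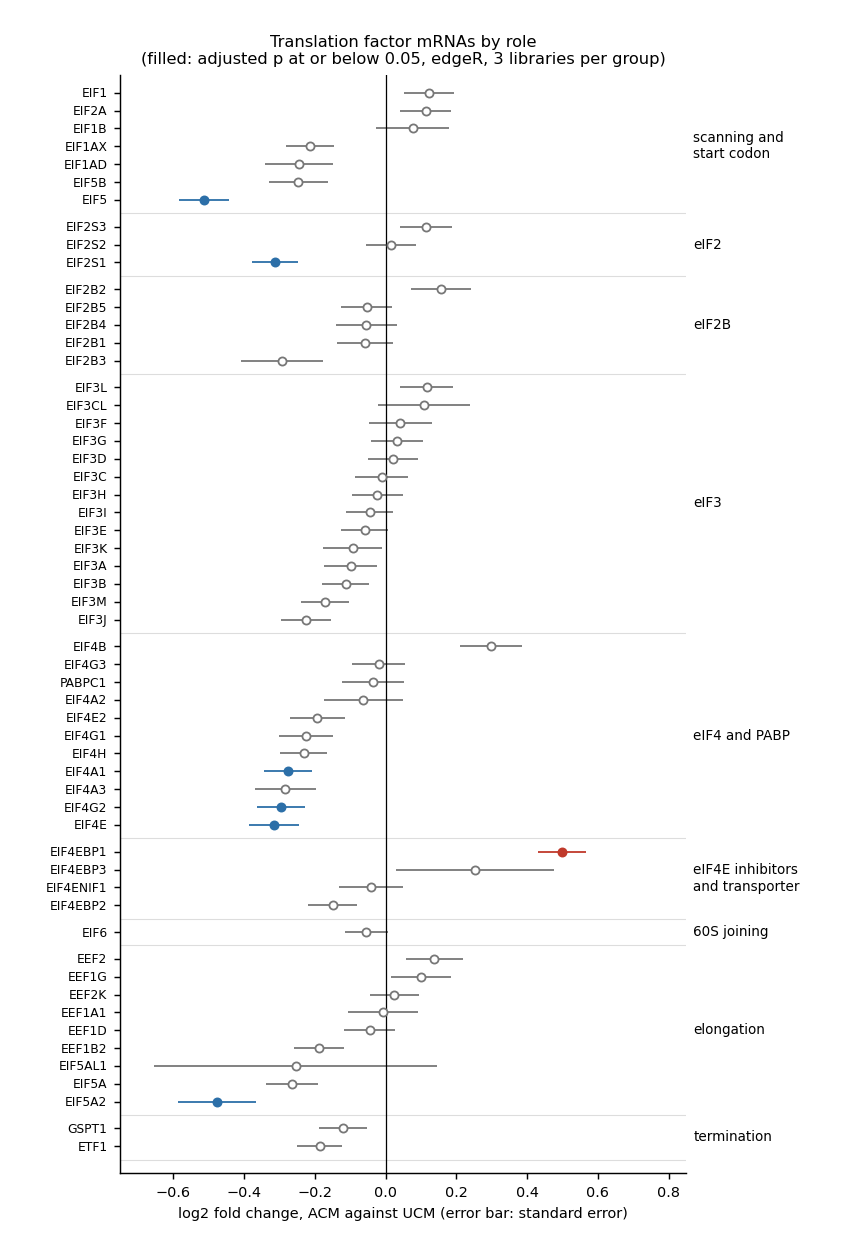
The log2 fold change of ACM against UCM (horizontal axis) of the 56 tested members, grouped by role, with the standard error as bar and filled points for an adjusted p-value at or below 0.05 (edgeR, 3 libraries per group). EIF4EBP1 lies at 0.50 and EIF5 at −0.51, and in the eIF4 group 10 of 11 members lie below 0, with EIF4B at 0.30.

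The cap-binding group has 13 genes, of which 11 were tested, and their median log2 FC was −0.22. Of these 3 fell, where 2.21 percent of all genes tested and 3.37 percent of abundant genes did. In 7 of the 11 every ACM library lay under every UCM library, as in 15.1 percent of all genes tested and 19.3 percent of abundant genes, and in EIF4B every one lay above. EIF4E, which binds the cap, stood at 59.6, 62.4 and 64.2 CPM in ACM replicates 1 to 3 and at 75.1, 80.9 and 75.7 CPM in UCM. The groups did not overlap, and the log2 FC was −0.32 with a standard error of 0.07 (edgeR adjusted p = 0.0316, and 0.0237 to 0.165 with each library left out in turn). EIF4G2, also known as DAP5, a relative of the scaffold that lacks the eIF4E-binding part, read 615, 618 and 675 CPM in ACM and 761, 803 and 777 CPM in UCM. This is a log2 FC of −0.30 with a standard error of 0.07 (edgeR adjusted p = 0.0354, and 0.0301 to 0.180 with each library left out). EIF4A1, the main form of the helicase, read 1073, 1011 and 1098 CPM in ACM against 1262, 1298 and 1295 CPM in UCM. Its log2 FC was −0.28 with a standard error of 0.07 (edgeR adjusted p = 0.0424, and 0.0387 to 0.205 with each library left out). For these 3 genes the ACM libraries were all lower, by 17.5 to 19.7 percent in the mean.

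Other members of the cap-binding group had log2 FC of the same sign that did not pass the test. The scaffold EIF4G1 read 812, 694 and 786 CPM in ACM and 901, 876 and 901 CPM in UCM, a log2 FC of −0.22 (edgeR adjusted p = 0.110). EIF4H, which like EIF4B stimulates the helicase, had a log2 FC of −0.23 (edgeR adjusted p = 0.0718). EIF4A3, a helicase of the exon junction complex rather than of initiation, had −0.28 (edgeR adjusted p = 0.0846, and −0.18 with effective lengths as offsets), and the alternative cap-binding protein EIF4E2 had −0.19 (edgeR adjusted p = 0.166). In all 4 the ACM libraries lay below the UCM libraries. EIF4B went the other way, with 255, 319 and 315 CPM in ACM and 235, 242 and 246 CPM in UCM. Its ACM replicate 1 lay close to the UCM libraries and the other two well above them. The log2 FC was 0.30 with a standard error of 0.09 and missed the threshold (edgeR adjusted p = 0.0749), but without ACM replicate 1 it was 0.40 and passed (adjusted p = 0.0132). EIF4B also passed under DESeq2, with the filter of at least 1 count and with the replicate number as a block. That makes 4 of the 15 alternatives, and with another library left out its adjusted p (edgeR) reached 0.258. PABPC1, the poly(A)-binding protein that joins the tail to eIF4G, read 2217, 2546 and 2569 CPM in ACM and 2298, 2608 and 2603 CPM in UCM, with replicate 1 the lowest in both media.

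Among the 4 genes for inhibitors and a transporter of eIF4E, EIF4EBP1 was the highest by level and the member that rose. This gene of the main 4E-binding protein lies at chr8:38030534-38060365 on the plus strand (GRCh38, positions from GENCODE 44). It read 277, 314 and 297 CPM in ACM and 207, 214 and 208 CPM in UCM, or 296 ± 18.4 against 209 ± 3.65 CPM (SD, n = 3). The lowest ACM library stood well above the highest UCM library, and the mean was 41.2 percent higher. The log2 FC was 0.50 with a standard error of 0.07 (edgeR adjusted p = 0.00401, and 0.00312 to 0.0256 with each library left out). Its relative EIF4EBP2 read 118, 129 and 113 CPM in ACM and 133, 132 and 134 CPM in UCM, which did not overlap, with a log2 FC of −0.15 (edgeR adjusted p = 0.229). EIF4EBP3 was low, at 3.90 to 6.48 CPM in ACM and 3.84 to 4.73 CPM in UCM. Per length, the ratio of EIF4EBP1 to EIF4E in TPM, RSEM's level scaled for transcript length, was 13.4, 15.8 and 12.0 in ACM and 7.72, 7.35 and 7.43 in UCM. That ratio was computed after its parts had been seen and has no test. It describes mRNA, and neither protein nor phosphorylation was measured in these libraries.

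**Figure D2:**
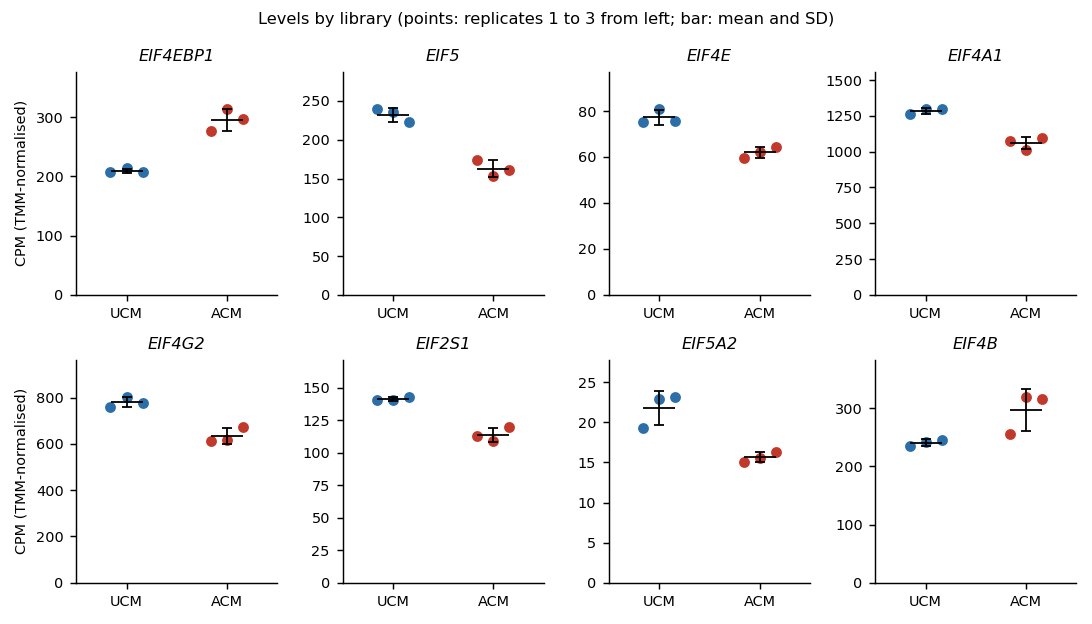
TMM-normalised CPM (vertical axes, from 0) of the 7 called members and EIF4B in each library, UCM on the left and ACM on the right, with mean and SD as bars (n = 3). The ACM points of EIF4EBP1 (277 to 314) lie above its UCM points (207 to 214), those of EIF5 (153 to 174) lie below (222 to 240), and EIF4B has its lowest ACM point at 255.

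In the scanning and start codon group EIF5 fell, with a log2 FC within a standard error of that of EIF5A2 described further on. Its protein makes eIF2 hydrolyse its GTP when the start codon is met. The gene lies at chr14:103333544-103345025 on the plus strand, and read 174, 153 and 161 CPM in ACM and 239.6, 235 and 222 CPM in UCM, a mean 30.0 percent lower in ACM. The log2 FC was −0.51 with a standard error of 0.07 (edgeR adjusted p = 0.00401, and 0.00325 to 0.0271 with each library left out). Of the 9 genes in this group 7 were tested. Besides EIF5, every ACM library lay under every UCM library for EIF5B, the GTPase of subunit joining, EIF1AX, which with eIF1 keeps the ribosome open for scanning, and EIF1AD. Their log2 FC were −0.25, −0.21 and −0.24, and none passed (edgeR adjusted p = 0.109, 0.0960 and 0.154). With EIF5, 4 of the 7 tested lay apart below, against 15.1 percent of all genes tested and 19.3 percent of abundant genes. EIF1AD is counted among the 4 for its name, after a domain like that of eIF1A, and is not an established scanning factor. With RSEM's effective lengths as offsets EIF1AX had a log2 FC of −0.32 and passed (edgeR adjusted p = 0.0473), whereas EIF5B, whose effective length averaged 0.866 times as much in ACM, had −0.02 (edgeR adjusted p = 0.958). In TPM the EIF5B libraries overlapped, at 31.9, 32.1 and 44.4 in ACM and 40.6, 35.0 and 35.9 in UCM. EIF1, which holds back start sites in poor context where eIF5 favours them, read 218, 252 and 234 CPM in ACM and 214, 221 and 211 CPM in UCM, and its groups overlapped (log2 FC 0.12, edgeR adjusted p = 0.336). The EIF5 to EIF1 ratio in TPM was 0.303, 0.222 and 0.256 in ACM and 0.416, 0.389 and 0.360 in UCM, again as a description without a test. EIF2A, an alternative carrier of initiator tRNA, had a log2 FC of 0.11 (edgeR adjusted p = 0.389).

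The 3 subunits of eIF2 did not move together. EIF2S1, the α subunit that carries the phosphorylation site of the stress kinases, read 113, 109 and 119.6 CPM in ACM and 141, 141 and 143 CPM in UCM. The UCM libraries were within 3 CPM of each other and above every ACM library. Its log2 FC was −0.31 with a standard error of 0.06 (edgeR adjusted p = 0.0233, and 0.0229 to 0.131 with each library left out). EIF2S2, the β subunit, read 280.0 to 322 CPM in ACM and 298 to 306 CPM in UCM (log2 FC 0.02, edgeR adjusted p = 0.925). EIF2S3, the γ subunit that binds GTP and the tRNA, read 272, 318 and 302 CPM in ACM and 267, 274 and 284 CPM in UCM, which overlapped (log2 FC 0.11, edgeR adjusted p = 0.390). In TPM the EIF2S3 libraries were apart, at 139.5, 152 and 189 in ACM and 136, 131 and 137 in UCM. Its effective length averaged 0.909 times as much in ACM, and with lengths as offsets its log2 FC was 0.27 (edgeR adjusted p = 0.186). The ratio of EIF2S1 to EIF2S3 was 0.416, 0.343 and 0.396 in ACM and 0.529, 0.514 and 0.503 in UCM by CPM, and 1.10, 1.04 and 1.06 against 1.55, 1.65 and 1.69 by TPM, without a test. In eIF2B no subunit passed, where 3.35 percent of all genes tested rose and 2.21 percent fell. Log2 FC ran from −0.29 for EIF2B3, a subunit of the catalytic part (edgeR adjusted p = 0.161), to 0.16 for EIF2B2 of the regulatory part (edgeR adjusted p = 0.307), and the 5 subunits had a median of −0.05. EIF2B2 was 1 of the 3 members whose ACM libraries all lay above the UCM libraries, at 34.1, 35.7 and 33.5 against 31.2, 32.6 and 28.9 CPM.

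None of the 14 eIF3 genes passed the test. At the shares of all genes tested, 3.35 percent higher and 2.21 percent lower, so few genes need not hold a call. eIF3 is the large complex that bridges eIF4G and the small subunit. Its genes had log2 FC from −0.22 for EIF3J, a loosely bound subunit at the decoding site, to 0.12 for EIF3L, with a median of −0.03. EIF3J read 99.0, 100.4 and 108 CPM in ACM and 113, 123 and 123 CPM in UCM (edgeR adjusted p = 0.0914, and a log2 FC of −0.34 in TPM). With EIF3M and EIF3B it made up the 3 of 14 eIF3 genes whose ACM libraries all lay below. Among all genes tested 15.1 percent did so, and among abundant genes 19.3 percent. The log2 FC of EIF3M and EIF3B were −0.17 and −0.11 (edgeR adjusted p = 0.159 and 0.347). EIF3L read 267, 307 and 302 CPM in ACM and 253, 279 and 277 CPM in UCM, which overlapped (edgeR adjusted p = 0.398). By level the subunits differed widely, since TPM ran from 60.9 for EIF3A to 662 for EIF3E in ACM and from 66.3 to 689 in UCM. EIF3C and its near-identical copy EIF3CL share reads, and EIF3CL had taken 15.9 percent of the reads of the pair, so neither is read on its own here. Summing members with their copies and pseudogenes moved no member across the threshold. EIF6, which keeps free large subunits from joining too soon, had 226 to 239 CPM in ACM and 235 to 248 CPM in UCM (log2 FC −0.05, edgeR adjusted p = 0.657).

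Of the 9 elongation genes only EIF5A2 passed the test, where 3.35 percent of all genes tested rose and 2.21 percent fell. EIF5A and its scarcer relative EIF5A2 carry hypusine and help ribosomes through stretches such as runs of proline. EIF5A2 read 15.0, 15.6 and 16.3 CPM in ACM and 19.3, 22.9 and 23.1 CPM in UCM. The groups were apart, and the log2 FC was −0.48 with a standard error of 0.11 (edgeR adjusted p = 0.0345, and 0.0121 to 0.163 with each library left out). In TPM, however, it read 17.4, 12.0 and 14.6 in ACM and 13.4, 18.9 and 15.5 in UCM, so that the groups overlapped. RSEM's effective length for EIF5A2 averaged 0.781 times as much in ACM as in UCM, and with these lengths as offsets the log2 FC was −0.10 (edgeR adjusted p = 0.811). EIF5A itself read 928, 866 and 969 CPM in ACM and 1042, 1124 and 1151 CPM in UCM, apart but short of the threshold (log2 FC −0.26, edgeR adjusted p = 0.0675). Of the eEF1B subunits, which recharge eEF1A with GTP, EEF1B2 had a log2 FC of −0.19 (edgeR adjusted p = 0.141), EEF1D −0.05 and EEF1G 0.10 (edgeR adjusted p = 0.761 and 0.533). EEF1A1, which brings aminoacyl-tRNA to the ribosome, read 6434, 7989 and 7377 CPM in ACM and 6751, 7631 and 7527 CPM in UCM (log2 FC −0.01 with a standard error of 0.10, edgeR adjusted p = 0.975). Replicate 1 was the lowest in both media, and the sign of this value turned under RLE size factors. EEF2, the translocase, read 2109, 2376 and 2318 CPM in ACM and 1919, 2122 and 2144 CPM in UCM (log2 FC 0.14, edgeR adjusted p = 0.342), and its inhibitory kinase EEF2K 55.6 to 58.7 and 56.2 to 57.1 CPM. The release factors ETF1 and GSPT1 had log2 FC of −0.19 and −0.12 (edgeR adjusted p = 0.111 and 0.321), and the ETF1 libraries did not overlap, at 285, 289 and 307 CPM in ACM and 336, 337 and 328 CPM in UCM.

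By level, EEF1A1 stood far above all other members, at 6779 ± 679 TPM in ACM and 6898 ± 366 TPM in UCM (SD, n = 3). Next by mean TPM came EIF5A with 1462 and 1768, PABPC1 with 1636 and 1566, EEF1G with 1614 and 1524, and EIF4A1 with 1285 and 1569 in ACM and UCM. EEF2 had 1119.9 and 1032 TPM, EEF1D 864 and 927, and EIF3E 662 and 689. Of these 8 only the libraries of EIF5A and EIF4A1 were apart in TPM as well as in CPM, both lower in ACM. In all, the 61 members held 2.25, 2.41 and 2.50 percent of TPM in ACM and 2.37, 2.51 and 2.53 percent in UCM, ranges that overlap. EIF2D, EIF4E1B and EIF1AY were listed at 0 in every library. EIF4E3 had 3 to 5 counts in ACM and 0 to 7 in UCM, and EIF2S3B had 1 to 3 and 2 to 5. None of these genes passed the filter.

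**Figure D3:**
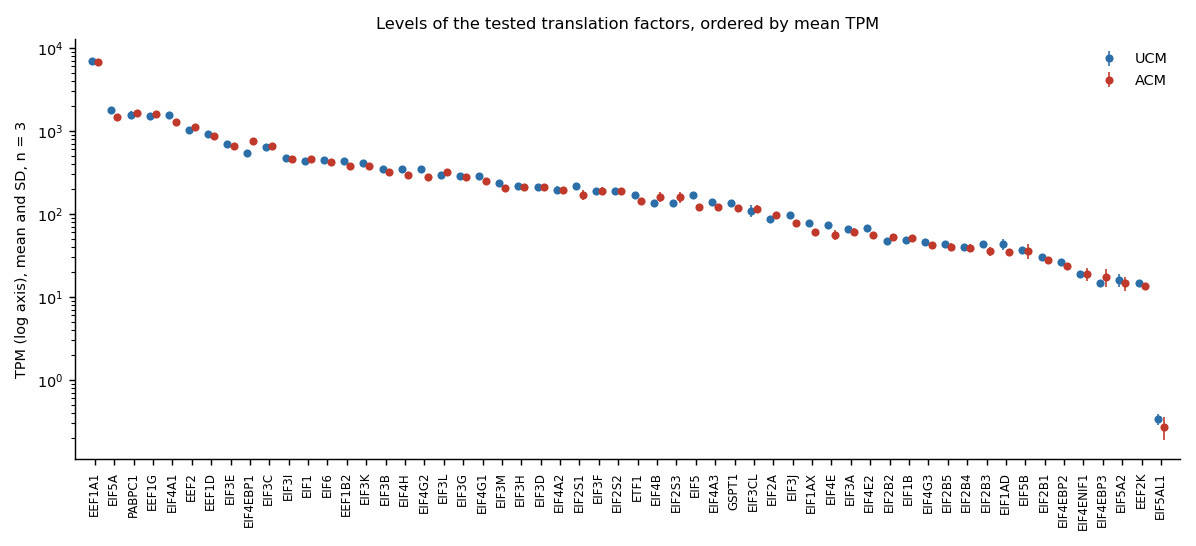
TPM (log axis) of the 56 tested members in UCM and ACM as mean and SD (n = 3), ordered by their mean over all libraries. EEF1A1 leads at 6779 in ACM and 6898 in UCM, and EIF4EBP1 stands at 763 in ACM and 548 in UCM.

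Members known as TOP mRNAs and the other members differed in their median. The 15 known TOP members, a list from general knowledge, had a median log2 FC of 0.03, with 8 above 0, 7 below and none called. The other 41 tested members had a median of −0.12, with 32 below 0. All 7 called members belong to the latter, which make up 41 of the 56 tested members. Genes for cytosolic ribosomal proteins, which as a class are known as TOP mRNAs too, were listed apart from the members. Of the 84 tested, 69 lay below 0, with a median of −0.07. That median has the sign of the other members and not of the 15 known TOP members. The split by median among the members therefore did not extend to these TOP mRNAs. Library by library, the median deviation of log2 CPM from each gene's own mean was −0.07, 0.05 and 0.08 for TOP members in ACM and −0.10, 0.03 and 0.01 in UCM, where replicate 1 was low in both media. For the other members it was −0.10, −0.08 and −0.02 in ACM and 0.02, 0.07 and 0.09 in UCM, so the media did not overlap for these and did for TOP members. Ribosomal protein genes overlapped too: ACM replicates 1 to 3 gave −0.06, 0.03 and −0.06, against −0.05, 0.11 and 0.04 for UCM replicates 1 to 3. The 30 bases around the annotated start show the feature that names the TOP class. They were read from RefSeq (GRCh38.p14) on the strand of the gene, from 10 bases before the start on, and the capitals mark the C at the start with the pyrimidines after it, or the start base alone where there is no such run. First come known TOP members that did not pass the test.
EEF1A1 (chr6:73521013-73521042, minus strand): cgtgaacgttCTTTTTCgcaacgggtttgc
EEF2 (chr19:3985444-3985473, minus strand): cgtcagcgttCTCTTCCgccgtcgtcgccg
EIF4B (chr12:53006446-53006475, plus strand): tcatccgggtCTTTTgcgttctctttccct
EIF2S3 (chrX:24054946-24054975, plus strand): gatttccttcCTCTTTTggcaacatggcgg
EIF3F (chr11:7987327-7987356, plus strand): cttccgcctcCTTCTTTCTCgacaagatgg
EIF2A (chr3:150546777-150546806, plus strand): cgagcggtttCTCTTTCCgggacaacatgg
Next are the 6 members that fell in ACM.
EIF5 (chr14:103334227-103334256, plus strand): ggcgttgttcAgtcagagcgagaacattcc
EIF5A2 (chr3:170908618-170908647, minus strand): cccgtctcttGgaactgccgcggccgccac
EIF4E (chr4:98929114-98929143, minus strand): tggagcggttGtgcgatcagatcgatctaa
EIF2S1 (chr14:67360318-67360347, plus strand): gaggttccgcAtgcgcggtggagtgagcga
EIF4G2 (chr11:10808907-10808936, minus strand): acgccttagcGccagcagtgagtcggagct
EIF4A1 (chr17:7572815-7572844, plus strand): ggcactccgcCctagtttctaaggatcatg

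A C at the start with at least 4 pyrimidines after it stood in 11 of the 46 tested members with a RefSeq promoter, or 23.9 percent, against 5.54 percent of 10068 tested protein-coding genes. None of the 6 members that fell has it, and 35 of the 46 lack it. EIF4A1 begins with a C, but its run ends earlier. EIF5 and EIF4G2 have a second RefSeq start, which was not read. Tested members with the motif had a median log2 FC of 0.02, with 6 above 0 and 5 below, and those without it −0.19, with 6 above and 29 below. Over all tested protein-coding genes the motif made no such split, since the medians were −0.02 for 558 genes with it and −0.01 for 9510 without. Of the 8 known TOP members with an entry 7 carried the motif at the exact start base, and EEF1G did not. EEF1D, EIF2S2, EIF3A, EIF3CL, EIF3E, EIF3G, EIF3H, EIF3L, EIF4EBP1 and PABPC1 have no entry in the promoter table. In the 300 bases from 250 before to 50 after the start, the E-box CACGTG, which reads the same on both strands, was present in 12 of the 46, or 26.1 percent, against 10.3 percent of tested protein-coding genes. EIF4E, EIF5A2 and EIF4B are among the 12, as are EEF2K, EIF1B, EIF3F and EIF3K, which were not called. EIF5, EIF2S1, EIF4G2 and EIF4A1, which fell, lack the E-box there. Its share among abundant genes was not counted. The letters TGACGTCA, the cAMP response element, were found only in EEF2, or 2.17 percent of the 46, against 3.52 percent of tested protein-coding genes. The letters TGATGNAA of the ATF4 and C/EBP element, searched on both strands, were found in none of the 46, against 1.34 percent of tested protein-coding genes. At so low a share 46 promoters cannot show that members lack the element, and EIF4EBP1 was not searched. A match is a run of letters and not a bound site.

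**Figure D4:**
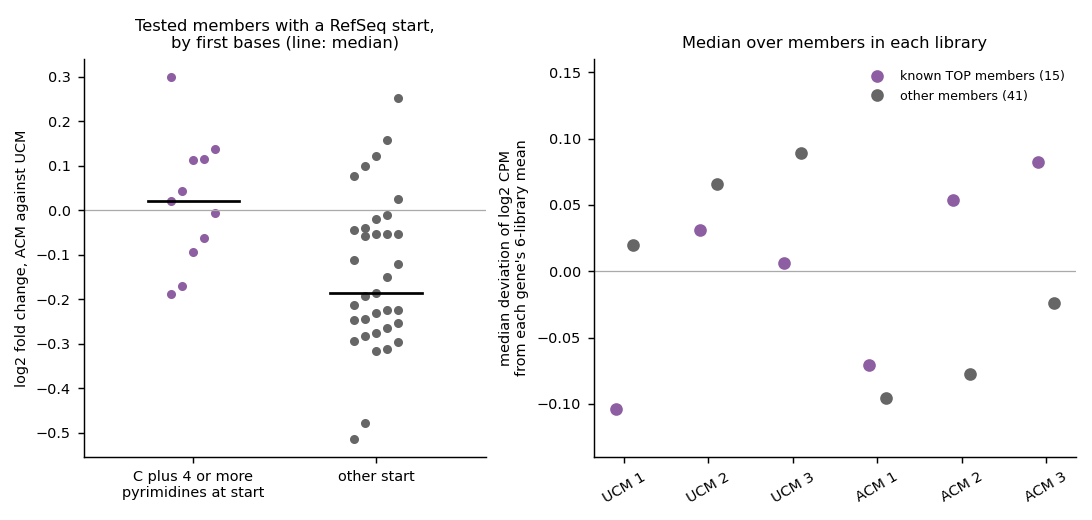
Left, log2 fold change of ACM against UCM of the 46 tested members with a RefSeq start, by whether a C with at least 4 pyrimidines after it opens the transcript, with the medians 0.02 and −0.19 as lines. Right, the median deviation of log2 CPM from each gene's mean over the 6 libraries, for 15 known TOP members and 41 others, where the others lie between 0.02 and 0.09 in UCM and between −0.10 and −0.02 in ACM.

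Genes that act on these factors were read from lists typed from general knowledge. Of 13 tested genes for eIF2α kinases, its phosphatase and the response, ATF4 rose and none fell, with a median log2 FC of 0.07. Of all genes tested 3.35 percent rose and 2.21 percent fell, and of abundant genes 4.3 and 3.37 percent. ATF4, the transcription factor whose mRNA is translated when eIF2 is limiting, read 213, 226 and 210.1 CPM in ACM and 178, 171 and 162 CPM in UCM. Its log2 FC was 0.34 with a standard error of 0.07 (edgeR adjusted p = 0.0177, but 0.0694, 0.0940 and 0.0964 without ACM replicate 2, UCM replicate 2 and UCM replicate 3). GCN1, a partner of the amino acid sensing kinase, had a log2 FC of 0.33 and did not pass (edgeR adjusted p = 0.0637). With effective lengths as offsets it was 0.11 (edgeR adjusted p = 0.846), and in TPM its libraries overlapped, at 44.5, 40.9 and 41.4 for ACM against 58.0, 28.2 and 34.0 for UCM. Of 17 tested genes of mTORC1 and its outputs 2 rose, beside the 3.35 percent of all genes tested, and none fell. Their median was −0.07. SESN2, a leucine sensor that restrains mTORC1, read 35.6, 41.7 and 34.2 CPM in ACM and 20.1, 18.9 and 18.3 CPM in UCM, a log2 FC of 0.96 (standard error 0.10, edgeR adjusted p = 0.00188), and was called in all 15 alternatives. DDIT4, which restrains mTORC1 through TSC2, read 408, 475 and 265 CPM against 194, 158 and 138 CPM, a log2 FC of 1.23 with a standard error of 0.24 (edgeR adjusted p = 0.0424). It was called without ACM replicate 3, but not when any other library was left out, with adjusted p-values (edgeR) of 0.0809, 0.0915, 0.0718, 0.179 and 0.154 without ACM replicates 1 and 2 and UCM replicates 1, 2 and 3. The filter of at least 1 count in total also ended its call (edgeR adjusted p = 0.130).

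Of the 5 stress and death genes read as markers, TRIB3 and BBC3 rose, where 3.35 percent of all genes tested did. CDKN1A, ATF3 and DDIT3 were not called, with log2 FC of 0.77, 0.05 and −0.28 (edgeR adjusted p = 0.113, 0.847 and 0.383). The summed level of the 5, of which TRIB3 was the largest part, was 95.2 to 125 CPM in ACM and 71.9 to 77.3 CPM in UCM. What part stress had in the results above was not tested. TRIB3, a pseudokinase induced by ATF4, read 54.7, 67.7 and 52.7 CPM against 35.5, 37.0 and 37.2 CPM (log2 FC 0.67, standard error 0.10, edgeR adjusted p = 0.00611). BBC3, the apoptosis activator PUMA, had a log2 FC of 1.32 with a standard error of 0.21 (edgeR adjusted p = 0.00729), and both were called in every alternative. Adipocyte markers summed to 0 to 0.143 CPM in ACM and 0 to 0.0948 CPM in UCM, with ADIPOQ, LEP and CIDEC at 0 in every library. In bulk RNA, a lower level in each cell cannot be told apart from fewer cells that hold the mRNA.

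The remaining machinery was called in few places, beside 3.35 percent of all genes tested that rose and 2.21 percent that fell. For direction, 7497 of 14451 genes tested and 4321 of 7836 abundant genes had a log2 FC below 0. Of 11 other initiation and reinitiation factors all had a log2 FC below 0, with a median of −0.16 and none called. DENR, which with MCTS1 serves reinitiation, had −0.26 (edgeR adjusted p = 0.0660). Of 12 genes for eIF4E kinases, cap competitors and partners of PABP, and of 17 other elongation and termination factors, none was called, and the medians were −0.06 and −0.01. The 12 mitochondrial translation factors had a median of −0.16, with 10 below 0 and none called. Of 84 tested cytosolic ribosomal protein genes 69 lay below 0, with a median of −0.07. Of the 84, 2 fell, a share close to the 2.21 percent of all genes tested that did so. RPS26 read 103, 87.5 and 93.8 CPM in ACM and 123, 135 and 128 CPM in UCM, a log2 FC of −0.44 (standard error 0.08, edgeR adjusted p = 0.0126, but 0.0529, 0.0695 and 0.0613 without ACM replicate 2, UCM replicate 2 and UCM replicate 3). RPL22L1, a paralogue of RPL22, read 7.56, 5.97 and 5.76 CPM against 10.3, 10.1 and 9.85 CPM, a log2 FC of −0.65 (standard error 0.15, edgeR adjusted p = 0.0390). It was not called without ACM replicate 2 or 3 or UCM replicate 2 or 3 (edgeR adjusted p = 0.137, 0.0974, 0.143 and 0.131), nor in TPM or with length offsets.

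**Figure D5:**
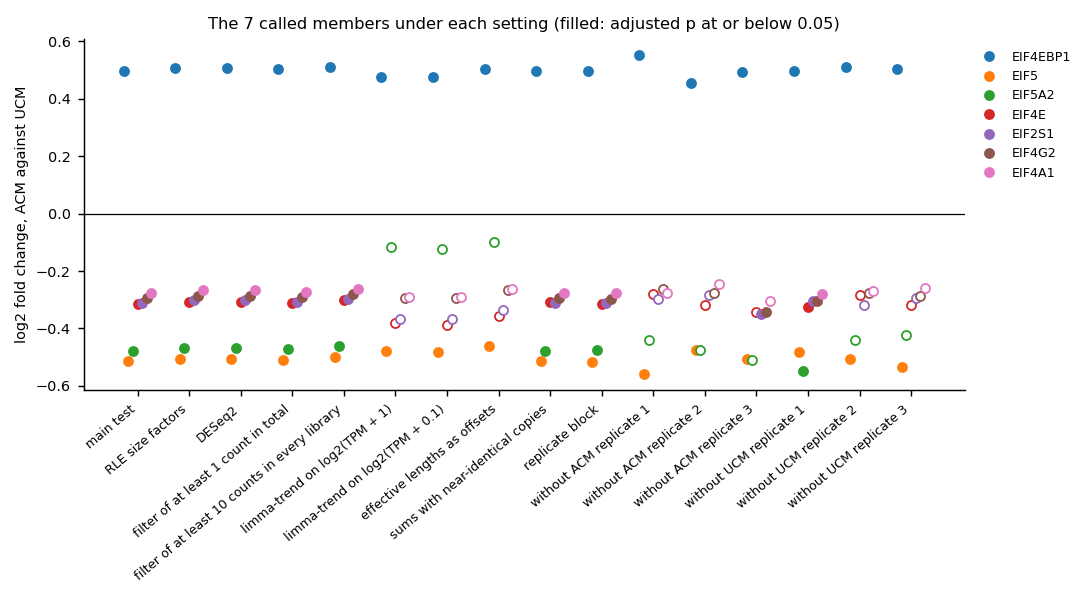
The log2 fold change of ACM against UCM (vertical axis) of the 7 called members under the main test and 15 alternatives (horizontal axis), filled where the adjusted p-value was at or below 0.05. EIF4EBP1 stays filled near 0.50 and EIF5 near −0.51 throughout, and EIF5A2 moves from −0.48 to −0.10 with effective lengths as offsets.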

How the data were processed

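Per the labels and the study's methods, paired reads of polyA-enriched RNA passed through Trim Galore, STAR (GRCh38) and RSEM. The authors deposited RSEM expected counts, which share ambiguous reads between genes, with TPM, scaled by effective length and library sum, and the effective lengths themselves. Tool versions and the annotation are not given in the sources used here. A deposited table of the authors' own DESeq2 comparison of the media was not used. Symbols came from GENCODE 44, by 61547 identifiers with version and 994 by stable part, with 599 unmatched.

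Expected counts were rounded and compared with edgeR 4.0.16 in R 4.3.3 (filterByExpr, TMM and a robust quasi-likelihood fit on condition alone), with Benjamini-Hochberg adjustment over 14451 genes, after the code had been tested on simulated data. CPM are TMM-normalised. Promoters came from RefSeq. Alternatives were DESeq2 1.42.0, RLE size factors, a looser filter (at least 1 count over all libraries), a stricter filter (10 counts in each library), limma 3.58.1 on log2(TPM + 1) and log2(TPM + 0.1), length offsets, sums with copies, the replicate number as a block, and each library left out. No replicates agreed within sampling noise. UCM replicates 2 and 3 came closest, with a chi-square over genes of 2.32 per degree of freedom. The other pairs within a medium stood at 13.1 to 21.5. Members and lists were chosen with earlier results of these data known, so lists have no test. Named were the called members, each role group's highest and lowest log2 FC, the 8 highest by TPM, the members below the filter, any whose effective length differed by over 1.5 times between media or whose call changed with its copies (none did), and called genes of other lists. Further genes (such as EIF4B, EIF4H, TRIB3 and BBC3) were named after their values were seen.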

Additional observations from a re-analysis of the deposited data

How the results depend on the processing

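The precision is limited by 3 libraries per group, at 17135288 to 21053257 counts per library. The median log2 FC of the members kept its sign in all alternatives. In place of 1 higher and 6 lower members, DESeq2 gave 2 higher and 8 lower, and the filter of at least 1 count 2 and 9. With log2(TPM + 1), log2(TPM + 0.1) or effective lengths as offsets, 2 were lower (EIF5 and EIF1AX), and the cause was not tested. With each library left out 1 to 2 were higher and 1 to 9 lower. With the replicate number as a block 2 were higher and 11 lower, but the numbers were not taken to pair the samples. Deviations from the group means correlated by 0.318, 0.0347 and 0.177 for replicates 1, 2 and 3, and UCM replicate 2 correlated best with ACM replicate 3 (0.196). Of 48 genes followed, 44 never changed sign. EEF1A1 turned to 0.0026 under RLE size factors and DESeq2, 0.0068 with at least 10 counts and 0.0012 with length offsets. PABPC1 turned to 0.064 in TPM with either pseudocount and 0.088 with length offsets, and EIF2S2 to −0.0056 in TPM. EEF2K turned to −0.12 with 1 and −0.13 with 0.1 added to TPM, and −0.10 with length offsets. With single libraries left out, EEF1A1 ran from −0.081 to 0.081, PABPC1 from −0.083 to 0.040, and EIF2S2 from −0.030 to 0.079. None of these was called in any setting.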
